A study of Homo sapiens with 16 samples.

Results

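The 10 genes described here encode the proteins that make phosphoribosyl pyrophosphate (PRPP) and those that build the purine ring on it. They are PRPS1, PRPS2, PRPSAP1, PRPSAP2, PPAT, GART, PFAS, PAICS, ADSL and ATIC. They were chosen by their place in this pathway with earlier results of these data known, and which values guided the choice is not recorded. The differences of these 10 genes are therefore given as a description, with intervals and without p-values. Where 1 of them is said to pass the threshold, an adjusted p under 0.05 from limma, this is likewise description. It is not a test of that gene. All 10 were found, each under 1 Ensembl ID, among the 18332 gene IDs of the expression table.

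RNA sequencing was carried out on a pair of human breast cancer cell lines known as negative for the estrogen receptor (ER), MDA-MB-231 and MDA-MB-468. Each line was kept for 48 hours in glucose at 5 mM (low) or at 25 mM (high). This gave 4 groups of 4 replicates, 16 samples in all. The comparison asks how expression in each line differs at a glucose concentration meant to model hyperglycemia. According to the methods of the study, both media lacked serum, and no osmotic control is among the samples analysed here. The same methods list DMEM as the growth medium of MDA-MB-231 and RPMI as that of MDA-MB-468. Cells were conditioned in low glucose before the switch to 25 mM. Differences between the lines therefore cannot be told apart from those of their growth media. Each result is that of a single cell line, and since no source states that the replicates were independent cultures, the intervals and p-values measure the spread among these samples, which may be technical.

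Recovered reads per library ranged from 14094597 to 24425916, and 3 reads, the smallest number taken as detected, corresponded to 0.123 to 0.213 reads per 1000000 reads of the library (CPM). All 10 genes passed the filter of at least 0.5 CPM in at least 2 samples in every comparison, none of them only through 1 group. ESR1, which encodes the estrogen receptor, lay at 2.41 to 4.41 CPM in MDA-MB-468 and at 0 to 0.170 CPM in MDA-MB-231. The mesenchymal marker VIM lay at 5247 to 5694 CPM in MDA-MB-231 and did not exceed 2.19 CPM in MDA-MB-468. The epithelial adhesion gene CDH1 lay at 0.246 to 0.625 CPM in MDA-MB-231 and at 123 to 135 CPM in MDA-MB-468. Not all markers split the lines in this way. The epithelial keratin gene KRT8 was also read in MDA-MB-231, at 575 to 667 CPM, against 2529 to 3052 CPM in MDA-MB-468. The mesenchymal marker CDH2 did not exceed 0.819 CPM in either line. The leukocyte marker PTPRC stayed below 1 CPM in all 16 samples, and the fibroblast marker COL1A1 did not exceed 21.7 CPM. For PGR, PECAM1 and HBB no values were obtained.

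PRPP is an activated form of ribose 5-phosphate, a product of the pentose phosphate pathway, and PRPP synthetase makes it by transfer of a pyrophosphate group from ATP. PPAT then commits PRPP to purines by placing the first nitrogen of the future ring on it, and the enzymes that follow complete the ring as inosine monophosphate (IMP), the precursor of AMP and GMP. Several of these enzymes carry more than 1 activity on a single chain, and they can gather in clusters in the cytosol when purines are short. PRPP also feeds purine salvage and the synthesis of pyrimidines and NAD, so that its supply is shared among pathways. Growing tumor cells draw on de novo synthesis for nucleic acids and for nucleotide cofactors.

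PPAT and PAICS lie head to head on chromosome 4 (GRCh37), with PPAT on the minus strand at 57259528 to 57301781 and PAICS on the plus strand at 57301907 to 57330744. Their annotated starts thus lie close together. Windows of 300 bases, from 250 before a start to 50 after, were taken from RefSeq, which gives PAICS 3 of them. Of these, 1 shares 236 bases with the PPAT window, and the others share 0 bases with it. The PPAT window is shown because 2 members start in it, that of ATIC because it holds a pair of E-boxes, and that of PRPSAP1, without an E-box, because this gene had the largest response to glucose of the 10. Sequences are from RefSeq (table of GRCh38.p14) and each was found once in GRCh37, on which the positions are given. Each is written 5′ to 3′ on the strand of the gene, and capitals mark the E-box CACGTG, a palindromic motif bound by factors of the MYC and MAX family.
PPAT, chr4:57301732-57302031, minus strand: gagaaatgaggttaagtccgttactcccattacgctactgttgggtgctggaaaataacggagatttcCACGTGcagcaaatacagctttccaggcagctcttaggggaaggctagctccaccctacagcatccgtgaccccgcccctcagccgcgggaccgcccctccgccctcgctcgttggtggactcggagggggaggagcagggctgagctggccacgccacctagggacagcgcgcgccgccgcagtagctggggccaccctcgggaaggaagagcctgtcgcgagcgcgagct
ATIC, chr2:216176532-216176831, plus strand: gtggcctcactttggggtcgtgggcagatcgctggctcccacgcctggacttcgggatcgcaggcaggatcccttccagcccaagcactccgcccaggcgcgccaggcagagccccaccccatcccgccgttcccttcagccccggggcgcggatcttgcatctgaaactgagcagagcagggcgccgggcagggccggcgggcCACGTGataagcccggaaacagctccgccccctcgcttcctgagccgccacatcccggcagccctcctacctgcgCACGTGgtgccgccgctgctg
PRPSAP1, chr17:74349948-74350247, minus strand: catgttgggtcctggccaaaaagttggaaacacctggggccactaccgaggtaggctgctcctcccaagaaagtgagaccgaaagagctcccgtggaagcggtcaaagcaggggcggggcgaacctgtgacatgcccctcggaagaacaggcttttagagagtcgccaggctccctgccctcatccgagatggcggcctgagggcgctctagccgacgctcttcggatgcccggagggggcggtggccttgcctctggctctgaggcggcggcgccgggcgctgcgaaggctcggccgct
RefSeq windows were matched for 9 of the 10 genes, all but ADSL, and several genes had more than 1 window, so that 18 windows were searched on both strands. The E-box was found in 3 of the 18 windows, 1 each of PPAT, PAICS and ATIC, where PPAT and PAICS share the same E-box, 182 bases before the start of PPAT and 40 after that of PAICS, and in 7.26% of all 35116 windows of the table. The core of the NRF1 motif, GCGCATGC, was in none of the 18 windows and in 3.05% of all windows. The ATF4 element TGATGNAA, where N is any base, was likewise in none of the 18 and in 3.62% of all windows. The 2 E-boxes of ATIC lie 46 bases before and 29 bases after its start. These are matches of letters only, and no binding was measured.

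PRPS1 and PRPS2, both on the X chromosome, encode the catalytic subunits of PRPP synthetase. Values below are normalized read counts, that is, the reads of a gene divided by 1 scaling factor per library. A difference is the mean of log2(value + 1) in 25 mM minus that in 5 mM glucose, from the limma model of each line. PRPS1 in MDA-MB-231 had normalized read counts of 1055, 1075, 1040.4 and 1058 in low glucose and 1013, 1093, 990.1 and 983 in high glucose. In MDA-MB-468 the counts of PRPS1 were 1238, 1269.6, 1242 and 1231 in low and 1321, 1182, 1321 and 1262 in high glucose. The ranges overlapped within each line, with log2 differences of -0.053 (95% interval -0.14 to 0.037) for MDA-MB-231 and 0.028 (95% interval -0.059 to 0.12) for MDA-MB-468. PRPS1 has a processed pseudogene, PRPS1P2, which held at most 23 reads in any library.

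PRPS2 was lower in high glucose in both lines. In MDA-MB-231 its normalized read counts were 645, 614, 646 and 618 in low and 512, 533, 515 and 524 in high glucose, and the ranges did not overlap. The log2 difference was -0.27 (95% interval -0.37 to -0.18), which is 0.827-fold (95% interval 0.772 to 0.886) and the largest in size of the 10 genes in this line. In MDA-MB-468 the counts were 1556, 1541, 1512 and 1494 in low and 1292, 1285, 1397 and 1386 in high glucose. Here too every low-glucose sample lay above every high-glucose sample, with a log2 difference of -0.19 (95% interval -0.27 to -0.11). The responses of the 2 lines differed by 0.087 (95% interval -0.016 to 0.19), MDA-MB-468 minus MDA-MB-231, an interval that includes 0. Per kb of transcript, the ratio of PRPS2 to PRPS1 in MDA-MB-231 was 0.50 ± 0.020 (mean ± SD, n = 4) in low and 0.429 ± 0.0165 in high glucose. The MDA-MB-468 samples gave 1.03 ± 0.0175 in low and 0.885 ± 0.0455 in high glucose. PRPS1 transcripts were the more abundant in MDA-MB-231, whereas in MDA-MB-468 the ranges of the 2 genes per kb overlapped in low glucose and PRPS1 lay above PRPS2 in high glucose.

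**Figure D1:**
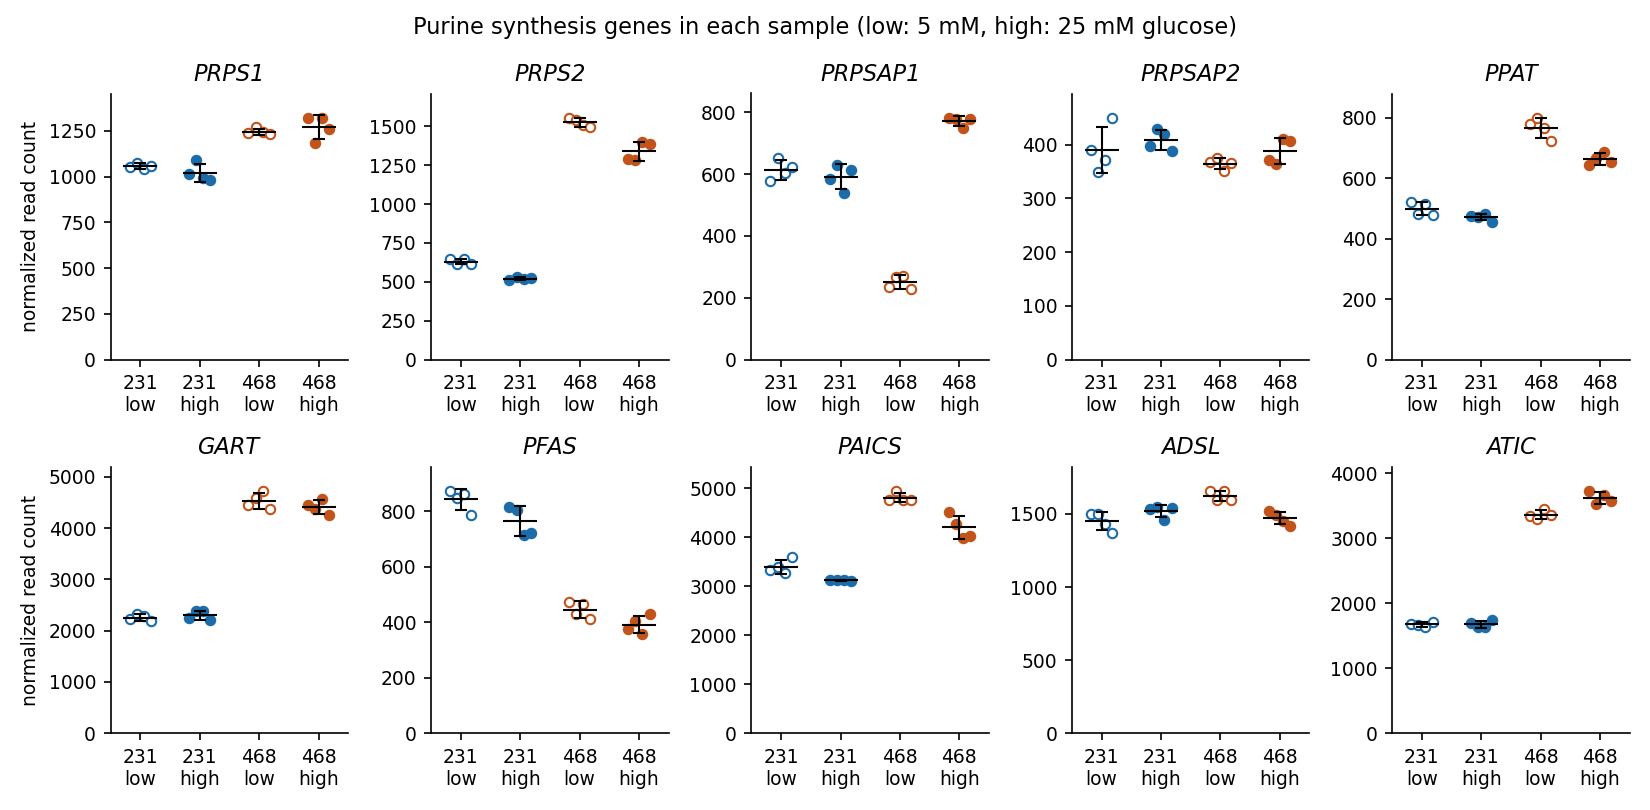
Normalized read count (vertical axes, from 0) of each of the 10 genes in the 16 samples, with MDA-MB-231 in blue, MDA-MB-468 in orange, open points for 5 mM and filled points for 25 mM glucose. Bars give the mean ± SD of 4 replicates. PRPSAP1 in MDA-MB-468 goes from 251 ± 21.4 to 772 ± 15.3, while the other 9 genes stay within 0.827-fold and 1.08-fold of their low-glucose level.

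PRPSAP1 and PRPSAP2 encode the associated proteins of PRPP synthetase, which resemble the catalytic subunits, are found in complexes with them and are known as negative regulators of the enzyme. PRPSAP1 had the largest response to glucose of the 10 genes, and it was seen in MDA-MB-468. Normalized read counts of PRPSAP1 in this line were 236, 268, 271 and 229.9 in low glucose and 783, 779, 749.7 and 779 in high glucose. The highest low-glucose sample thus stayed far below the lowest high-glucose sample, and PRPSAP1 was 3.08-fold (95% interval 2.81 to 3.37) of its low-glucose level, a log2 difference of 1.62 (95% interval 1.49 to 1.75). It ranked 69 of 15757 genes when these were ordered from the largest rise to the largest fall. In MDA-MB-231 the counts of PRPSAP1 were 577, 652, 603 and 623 in low and 586, 630.1, 539 and 613 in high glucose. These ranges overlapped, with a log2 difference of -0.053 (95% interval -0.17 to 0.068). The difference of the 2 responses was 1.67 (95% interval 1.49 to 1.86) on the log2 scale. In low glucose PRPSAP1 was at 0.409 of its MDA-MB-231 level in MDA-MB-468, and in high glucose all 4 MDA-MB-468 samples lay above all 8 MDA-MB-231 samples.

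PRPSAP2 passed the threshold in neither line. Its normalized read counts in MDA-MB-468 were 368, 375, 351 and 366 in low and 371, 364, 411 and 407 in high glucose. Those in MDA-MB-231 were 389, 349, 371 and 450.3 in low and 398, 429, 421 and 389 in high glucose. Ranges overlapped in both lines, and the log2 differences were 0.087 (95% interval -0.039 to 0.21) in MDA-MB-468 and 0.074 (95% interval -0.077 to 0.23) in MDA-MB-231. PRPSAP2 was also the 1 gene of the 10 whose levels overlapped between the lines in low glucose, with a log2 difference of -0.089 (95% interval -0.23 to 0.054). Per kb of transcript, PRPSAP1 stood at 0.393 ± 0.0386 of PRPSAP2 in MDA-MB-468 in low glucose and at 1.14 ± 0.0869 in high glucose, so that the order of the 2 genes was turned. In MDA-MB-231 the same ratio was 0.906 ± 0.119 and 0.826 ± 0.0704. The summed level per kb of the 2 associated proteins over that of PRPS1 and PRPS2 went from 0.213 ± 0.00373 to 0.366 ± 0.0104 in MDA-MB-468. For MDA-MB-231 it was 0.493 ± 0.0314 in low and 0.542 ± 0.00528 in high glucose. The ratio in MDA-MB-468 in high glucose ranged from 0.356 to 0.378 over the 4 samples and stayed below all MDA-MB-231 samples, in which it was 0.476 to 0.540 in low glucose.

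PRPSAP1 lies on the minus strand of chromosome 17 (GRCh37, 74305559 to 74380602). Its annotated 5′ part overlaps SPHK1, which encodes a sphingosine kinase on the plus strand, by 7938 bases, upstream of both RefSeq starts, and whether reads were counted by strand is not given in the sources used here. The neighbours named in this paragraph were chosen after their values were seen. SPHK1 had 29.0 ± 1.90 normalized read counts in low and 53.6 ± 4.41 in high glucose in MDA-MB-468 (mean ± SD, n = 4), against 251 and 772 for PRPSAP1. The next gene tested on the other side, QRICH2, had 24.5, 22.1, 27.1 and 24.3 in low and 90.4, 89.6, 73.3 and 97.8 in high glucose. QRICH2 rose in MDA-MB-468 with a log2 difference of 1.79 (95% interval 1.47 to 2.12) and an adjusted p of 8.89e-08 (limma, Benjamini-Hochberg over all genes tested), and SPHK1 rose with 0.86 (95% interval 0.52 to 1.2) and an adjusted p of 2.99e-04. UBALD2, beyond QRICH2, rose from 266 ± 9.86 to 419 ± 23.4 with a log2 difference of 0.65 and an adjusted p of 2.51e-07 in limma. In MDA-MB-231 QRICH2 had a log2 difference of -0.026 (95% interval -0.36 to 0.31), while UBALD2 fell with -0.23 (95% interval -0.33 to -0.12). SPHK1 rose in MDA-MB-231 as well, with 0.24 (95% interval 0.077 to 0.40) and an adjusted p of 0.0444 in limma. Of the 34 other genes tested within 500 kb of PRPSAP1 in MDA-MB-468, 14 were higher and 4 lower in high glucose by the limma threshold of an adjusted p of 0.05, against 24.9% and 22.7% of all 15757 genes. In MDA-MB-231 3 were higher and 3 lower of 32 tested, against 5.71% and 9.37% of 14884.

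**Figure D2:**
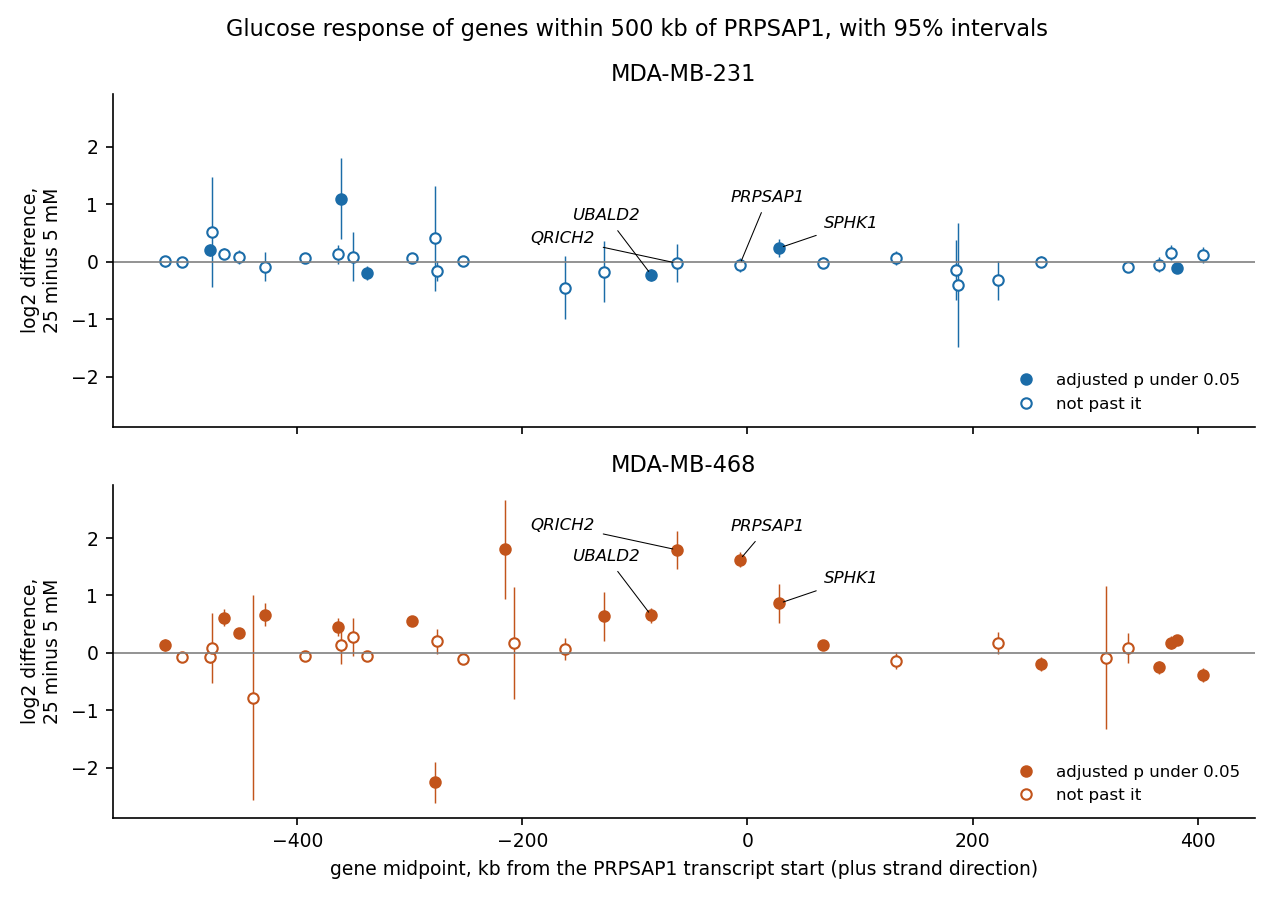
Log2 difference between 25 and 5 mM glucose (vertical axis) of the genes within 500 kb of PRPSAP1 against the distance of their midpoint from its transcript start in kb (horizontal axis), for MDA-MB-231 above and MDA-MB-468 below. Lines are 95% intervals from limma and filled points are genes with an adjusted p under 0.05. In MDA-MB-468 QRICH2, PRPSAP1 and SPHK1 stand next to each other at 1.79, 1.62 and 0.86, and in MDA-MB-231 they lie at -0.026, -0.053 and 0.24.

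PPAT, the amidotransferase of the committed step, had normalized read counts of 778, 799.6, 766 and 722 in low and 643, 666, 687 and 654 in high glucose in MDA-MB-468. The ranges were separate, and PPAT fell with a log2 difference of -0.21 (95% interval -0.31 to -0.11). In MDA-MB-231 the counts were 522, 480.5, 513 and 479 in low and 475, 471, 481 and 457 in high glucose, which overlapped, with a log2 difference of -0.081 (95% interval -0.19 to 0.029). PAICS, which carries a carboxylase and a synthetase of the middle of the pathway, starts on the other side of the PPAT promoter. Its counts in MDA-MB-468 were 4758, 4945, 4763 and 4761 in low and 4515, 4280.0, 3982 and 4038 in high glucose. It fell there with -0.20 (95% interval -0.27 to -0.12), close to the PPAT value, and its ranges were separate. In MDA-MB-231 the counts of PAICS were 3335, 3400.4, 3271 and 3600.5 in low and 3140.0, 3127, 3122 and 3119.7 in high glucose. All 4 high-glucose samples lay below all low-glucose samples, with a log2 difference of -0.12 (95% interval -0.19 to -0.050). PAICS no longer passed the threshold in MDA-MB-231 without high-glucose replicate 2, 3 or 4, where the difference stayed at -0.12. The ratio of PAICS to PPAT in normalized read counts was 6.84 ± 0.556 and 6.64 ± 0.143 in MDA-MB-231 in low and high glucose, and 6.28 ± 0.215 and 6.35 ± 0.516 in MDA-MB-468. Its ranges overlapped among all 4 groups. PAICS has a processed pseudogene, PAICSP1, in the table with at most 18 reads in a library, against at least 2927 for PAICS.

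GART, a single protein with 3 activities that include the first formyl transfer, passed the threshold in neither line. Its normalized read counts in MDA-MB-231 were 2228, 2329.9, 2281 and 2189.9 in low and 2256, 2381, 2378 and 2209 in high glucose. In MDA-MB-468 they were 4454, 4595, 4723 and 4371 in low and 4453, 4372, 4574 and 4253 in high glucose. Ranges overlapped in both lines, with log2 differences of 0.030 (95% interval -0.046 to 0.11) and -0.039 (95% interval -0.11 to 0.030). PFAS, the amidotransferase that adds the next nitrogen, went the same way in both lines. In MDA-MB-468 the counts of PFAS were 474, 429, 467 and 412 in low and 375, 403, 357 and 428 in high glucose, with a log2 difference of -0.19 (95% interval -0.33 to -0.047). It passed the threshold although the 2 ranges overlapped, and the call was lost without low-glucose replicate 1 (-0.16) or 3 (-0.17) and without high-glucose replicate 1 (-0.17) or 3 (-0.15). In MDA-MB-231 the counts were 872, 846, 864 and 788 in low and 816, 804, 716 and 721 in high glucose. The ranges again overlapped, and the log2 difference of -0.14 (95% interval -0.25 to -0.029) did not pass the threshold after adjustment, but did so without low-glucose replicate 4 (-0.17). GART overlaps SON on the other strand by 454 bases and PFAS overlaps CTC1 by 441. In MDA-MB-468 SON had a log2 difference of -0.083 and CTC1 of 0.24, and the MDA-MB-231 values were -0.051 and -0.045.

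ADSL, the lyase that acts both in this pathway and in the branch to AMP, fell in MDA-MB-468. Its normalized read counts were 1656, 1596, 1655 and 1596 in low and 1519, 1494, 1455 and 1420.3 in high glucose. The ranges did not overlap, with a log2 difference of -0.14 (95% interval -0.22 to -0.068). In MDA-MB-231 the counts were 1502, 1502, 1428 and 1373 in low and 1536, 1550.4, 1460.1 and 1544 in high glucose, which overlapped. There the log2 difference was 0.070 (95% interval -0.015 to 0.15), of the opposite sign, and the difference of the 2 responses was -0.21 (95% interval -0.31 to -0.11). The annotated ADSL gene overlaps SGSM3 on the same strand by 19873 bases, and SGSM3 went from 891 ± 43.2 to 1503 ± 118 in MDA-MB-468, the other way from ADSL. ATIC, which carries the final formyl transfer and closes the ring to IMP, was the 1 enzyme of the 6 that rose. Its counts in MDA-MB-468 were 3351, 3295, 3453 and 3366 in low and 3725, 3521, 3660.2 and 3574 in high glucose. Every high-glucose sample lay above every low-glucose sample, by a log2 difference of 0.10 (95% interval 0.041 to 0.17). In MDA-MB-231 the counts of ATIC were 1682, 1662, 1637 and 1718 in low and 1689, 1630.4, 1633 and 1743 in high glucose. They overlapped widely, and the log2 difference was -0.00094 (95% interval -0.077 to 0.076).

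**Figure D3:**
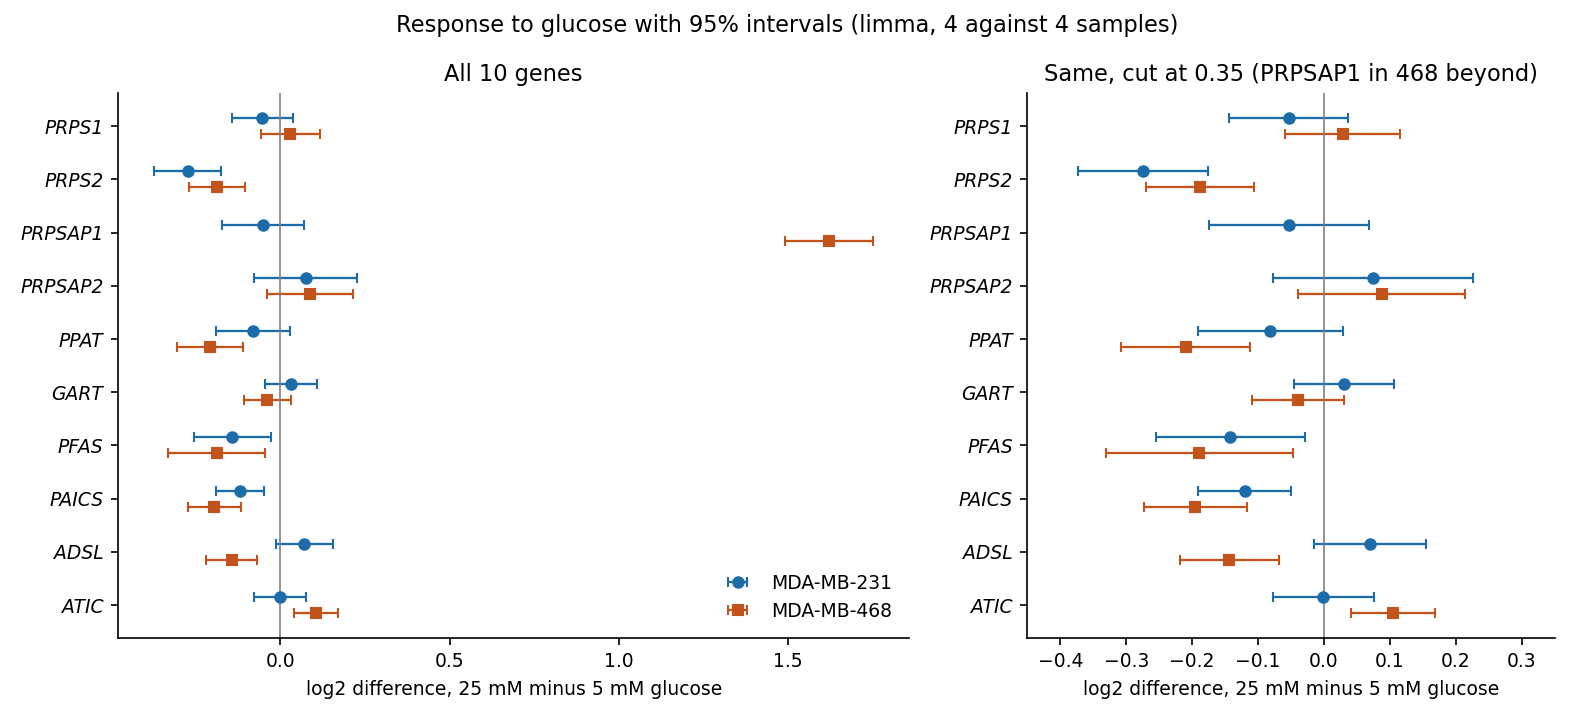
Log2 difference between 25 and 5 mM glucose (horizontal axes) for the 10 genes in MDA-MB-231 (blue circles) and MDA-MB-468 (orange squares), with 95% intervals from limma on 4 against 4 samples. The right panel repeats the left on a narrower axis, without PRPSAP1 in MDA-MB-468, which lies at 1.62. PRPS2 and PAICS lie below 0 in both lines, and ATIC in MDA-MB-468 lies at 0.10.

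By the limma threshold, an adjusted p under 0.05 over all genes tested, 2 of the 10 genes were called in MDA-MB-231, PRPS2 and PAICS, both lower. Among all 14884 genes tested in this line, 15.1% were called, and nothing is read from the members' count, since the values may have guided their choice. The 2 groups did not overlap in 2 of the 10 genes and in 18.7% of all genes. In MDA-MB-468, 7 of the 10 were called, PRPSAP1 and ATIC higher and PRPS2, PPAT, PFAS, PAICS and ADSL lower. Here 47.6% of 15757 genes were called, and the groups did not overlap in 6 of the 10 genes and in 42.5% of all genes. The median log2 difference of the 10 genes was -0.053 for MDA-MB-231 and -0.091 for MDA-MB-468, against a median of 0.00 over all genes tested in both lines. The responses of the lines differed for 2 of the 10 genes, PRPSAP1 and ADSL, and for 30.9% of 17115 genes, with 17.0% of all genes higher and 13.9% lower in MDA-MB-468. ATIC lay at the threshold in this test, with a difference of 0.11 (95% interval 0.023 to 0.19), and was called in 9 of 28 alternative fits. Together the 10 genes made up 739 ± 10.8 CPM in MDA-MB-231 in low and 728 ± 10.1 in high glucose. In MDA-MB-468 they made up 1204 ± 14.7 in low and 1154 ± 23.5 in high glucose (mean ± SD, n = 4). All values are relative to the library, and in such bulk samples fewer cells and less RNA per cell cannot be told apart.

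In low glucose 7 of the 10 genes were higher in MDA-MB-468 and 2 lower, against 45.0% and 40.4% of 17115 genes, so that 85.4% of all genes were called and the groups did not overlap in 80.5%. PRPS2 was 2.42-fold (95% interval 2.30 to 2.54) of its MDA-MB-231 level, the largest excess of the 10. GART was 2.01-fold (95% interval 1.91 to 2.11) and ATIC 2.01-fold (95% interval 1.93 to 2.09). PPAT and PAICS, which lie head to head, were at 1.54-fold (95% interval 1.45 to 1.63) and 1.41-fold (95% interval 1.34 to 1.49). PRPS1 and ADSL were higher by less, at 1.18-fold (95% interval 1.11 to 1.25) and 1.12-fold (95% interval 1.07 to 1.18). The 2 lower genes were PRPSAP1, at 0.409-fold (95% interval 0.375 to 0.448), and PFAS, at 0.529-fold (95% interval 0.481 to 0.581). PFAS thus stood apart from the other 5 enzymes from PPAT to ATIC, all of which were higher in MDA-MB-468. The ratio of GART to PFAS per kb in low glucose was 16.5 ± 0.963 for MDA-MB-468 and 4.34 ± 0.170 for MDA-MB-231.

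**Figure D4:**
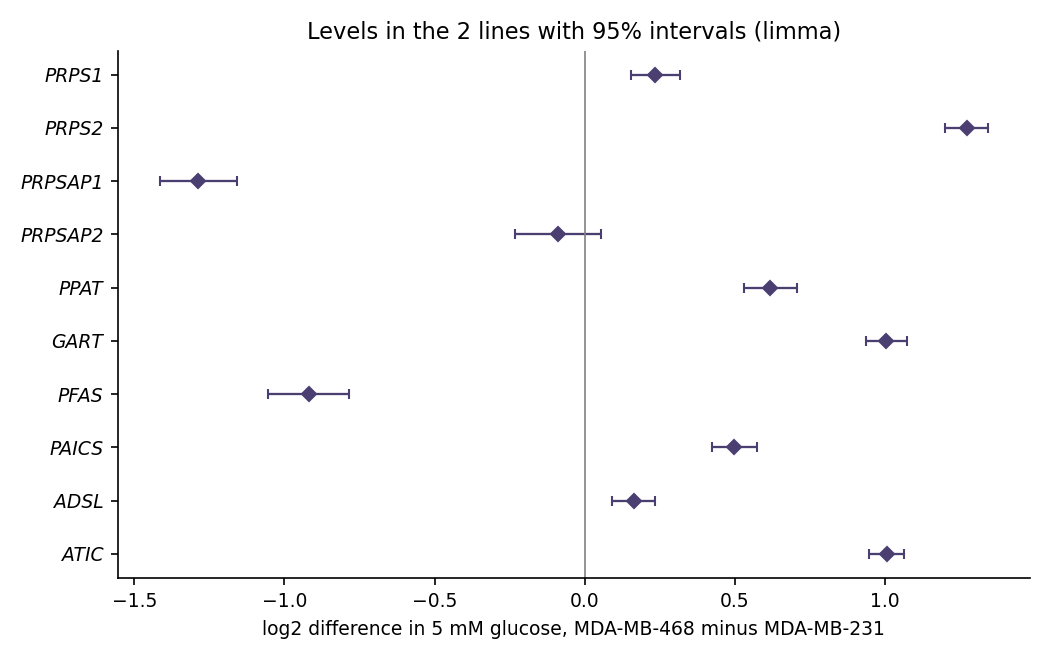
Log2 difference between MDA-MB-468 and MDA-MB-231 in 5 mM glucose (horizontal axis) for the 10 genes, with 95% intervals from limma on all 16 samples. PRPS2 lies farthest to the right at 1.27, PRPSAP1 and PFAS lie at -1.29 and -0.92, and the interval of PRPSAP2 includes 0.

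Levels can be compared between genes per kb of the canonical transcript, whose length stands for the gene. In MDA-MB-231 in low glucose the order ran from ATIC at 849 ± 17.3 normalized reads per kb and GART at 680.3 ± 18.4 through PAICS at 534 ± 22.4, PRPS1 at 511 ± 6.95, ADSL at 333 ± 14.4 and PRPS2 at 255 ± 7.02 to PRPSAP2 at 199 ± 22.2, PRPSAP1 at 179 ± 9.22, PFAS at 157 ± 7.12 and PPAT at 135 ± 5.96. The ranges of PAICS and PRPS1 overlapped, as did those of PRPSAP2 and PRPSAP1, and the other neighbours in this order did not. In MDA-MB-468 in low glucose ATIC at 1707 ± 33.2 and GART at 1367 ± 46.9 again led, and PFAS at 83.0 ± 5.49 and PRPSAP1 at 73.1 ± 6.22 came last. The ranges of PRPS2 and PRPS1 overlapped there, as did those of PFAS and PRPSAP1. In high glucose PRPSAP1 moved in MDA-MB-468 from the last to the seventh place, at 225 ± 4.46, above PRPSAP2 at 198 ± 12.3 and PPAT at 179.9 ± 5.13. PPAT, the committed enzyme, was thus among the 4 genes of lowest level in all 4 groups.

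Genes that supply the pathway or use its products were followed in 7 lists with 66 genes in all. From each, genes are named among the 3 with the largest difference past the threshold and at least 5 CPM. Of the 10 genes of ribose 5-phosphate supply, 5 were higher and 0 lower in high glucose in MDA-MB-468, and 1 higher and 0 lower in MDA-MB-231. PGM1, which links glycogen and glucose phosphates, rose in MDA-MB-468 by 0.90 on the log2 scale (limma adjusted p = 1.68e-11), from 1571 ± 56.4 to 2922 ± 80.7 normalized read counts. TKT, transketolase, rose by 0.26 (limma adjusted p = 1.48e-05). In MDA-MB-231 PGLS, the lactonase of the pentose phosphate pathway, rose by 0.22 (limma adjusted p = 9.62e-04). The list median was 0.14 in MDA-MB-468 and 0.0067 in MDA-MB-231, both against 0.00 over all genes. Among all genes 24.9% were higher and 22.7% lower in MDA-MB-468, and 5.71% higher and 9.37% lower in MDA-MB-231.

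From IMP the pathway branches to AMP and GMP. Of the 8 genes of the branches, 5 were higher and 1 lower in MDA-MB-468, against 24.9% and 22.7% of all genes. In MDA-MB-231 0 were higher and 1 was lower of 7 tested, against 5.71% and 9.37% of all genes. The medians were 0.17 in MDA-MB-468 and -0.054 in MDA-MB-231. AK1, an adenylate kinase, rose in MDA-MB-468 from 308 ± 22.5 to 621 ± 46.7, a log2 difference of 1.01 (limma adjusted p = 4.54e-09). The 2 IMP dehydrogenases of the GMP branch moved in opposite directions in this line. IMPDH2 fell with -0.37 (95% interval -0.45 to -0.29, limma adjusted p = 8.63e-07) and IMPDH1 rose with 0.28 (95% interval 0.16 to 0.39, limma adjusted p = 4.13e-04). GMPS, which completes GMP, was the gene that fell in MDA-MB-231, with -0.21 (95% interval -0.30 to -0.12, limma adjusted p = 0.00261).

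Salvage returns free bases to nucleotides at the cost of PRPP. Of 12 genes of purine salvage and breakdown, 4 were higher and 2 lower in MDA-MB-468, against 24.9% and 22.7% of all genes. In MDA-MB-231 2 were higher and 2 lower of 11 tested, against 5.71% and 9.37% of all genes. The medians were 0.0040 in MDA-MB-468 and -0.057 in MDA-MB-231. HPRT1, which salvages hypoxanthine and guanine, moved in opposite directions in the 2 lines. It fell in MDA-MB-231 from 628 ± 49.6 to 501 ± 14.2, by a log2 difference of -0.32 (95% interval -0.44 to -0.20, limma adjusted p = 8.48e-04). It rose in MDA-MB-468 from 762 ± 24.7 to 913 ± 48.4, by 0.26 (95% interval 0.16 to 0.36, limma adjusted p = 2.17e-04). The difference of these responses was 0.58 (95% interval 0.43 to 0.73, limma adjusted p = 1.13e-05). DCK, deoxycytidine kinase, fell in MDA-MB-231 with -0.31 and AMPD3, an AMP deaminase, rose with 0.28. GDA, guanine deaminase, fell in MDA-MB-468 with -0.80 (95% interval -0.91 to -0.68) and had 0 reads in all 8 MDA-MB-231 libraries, and ADA, adenosine deaminase, rose with 0.33.

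Purine synthesis draws its formyl groups from one-carbon metabolism. Of the 12 genes of this list, 1 was higher and 6 lower of 11 tested in MDA-MB-468, against 24.9% and 22.7% of all genes. In MDA-MB-231 3 were higher and 3 lower of 11 tested, against 5.71% and 9.37% of all genes. The medians were -0.11 in MDA-MB-468 and 0.013 in MDA-MB-231. SHMT1 and SHMT2, the serine hydroxymethyltransferases, fell in MDA-MB-468 with -0.32 and -0.26. In MDA-MB-231 TYMS, thymidylate synthase, fell with -0.65 (95% interval -0.72 to -0.57). Its values there went from 1838, 1877, 1883 and 1868 to 1194, 1175, 1178 and 1218 in normalized read counts, ranges far apart (limma adjusted p = 1.90e-09).

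Pyrimidine synthesis shares PRPP with the purine pathway. Of its 8 genes 6 were higher and 0 lower in MDA-MB-468, against 24.9% and 22.7% of all genes. In MDA-MB-231 0 were higher and 1 was lower, against 5.71% and 9.37% of all genes. The medians were 0.11 in MDA-MB-468 and -0.11 in MDA-MB-231. UMPS, which joins PRPP to the pyrimidine ring, rose in MDA-MB-468 with 0.17 (95% interval 0.034 to 0.31, limma adjusted p = 0.0383), and CMPK1, a nucleotide kinase, with 0.12. NME1, a nucleoside diphosphate kinase, rose with 0.60, but NME1 and NME2 are nearly identical neighbours joined by read-through transcripts, so that their counts are uncertain. CTPS1, CTP synthase, fell in MDA-MB-231 with -0.25 (95% interval -0.35 to -0.14, limma adjusted p = 0.00203). Among 5 other users of PRPP, 4 were tested in each line, with medians of -0.053 in MDA-MB-468 and 0.034 in MDA-MB-231. Of these, 2 were higher and 1 lower in MDA-MB-468 and 1 was higher in MDA-MB-231, against the same shares of all genes. QPRT and NAMPT, of NAD synthesis, rose in MDA-MB-468 with 0.12 and 0.094, and NAPRT, also of NAD synthesis, rose in MDA-MB-231 with 0.21. NAPRT was the gene that fell in MDA-MB-468, with -0.77 at a level under 5 CPM, and is named here after its value was seen.

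Of 11 regulators known to act on purine synthesis genes, 3 were higher and 1 lower in MDA-MB-468, against 24.9% and 22.7% of all genes. In MDA-MB-231 3 were higher and 2 lower, against 5.71% and 9.37% of all genes. The medians were -0.037 in MDA-MB-468 and 0.040 in MDA-MB-231. MYC, which binds E-boxes together with MAX, fell in MDA-MB-231 with -0.23 (95% interval -0.29 to -0.17, limma adjusted p = 3.46e-05), and MXI1, which competes with MYC for MAX, rose with 0.29 (95% interval 0.18 to 0.41, limma adjusted p = 9.99e-04). E2F1, a factor of the G1 to S transition, fell in MDA-MB-231 with -0.59 (95% interval -0.70 to -0.48, limma adjusted p = 5.45e-07) and rose in MDA-MB-468 with 0.23 (95% interval 0.13 to 0.33, limma adjusted p = 6.73e-04). In MDA-MB-468 RPS6KB1, the S6 kinase downstream of mTORC1, fell with -0.31 and MXD4, of the MXD family of MAX partners, rose with 0.28. Whether any of these regulators bears on the 10 genes was not tested.

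The difference of the responses, MDA-MB-468 minus MDA-MB-231, was past the limma threshold in these lists for 4 higher and 1 lower of 8 genes of AMP and GMP branches, 4 higher and 3 lower of 12 of salvage and breakdown, 2 higher and 5 lower of 12 of one-carbon supply, 5 higher and 0 lower of 10 of ribose 5-phosphate supply, 5 higher and 0 lower of 8 of pyrimidine synthesis, 1 higher and 1 lower of 5 of other users of PRPP and 2 higher and 2 lower of 11 of regulators. Over all 17115 genes tested, 17.0% were past this threshold as higher and 13.9% as lower. In pyrimidine synthesis the difference was positive for all 8 genes, with a median of 0.25, and in ribose 5-phosphate supply the median was 0.16. The 10 members had a median of -0.017, against -0.0036 over all 17115 genes.

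Among the 5 genes whose pattern over the 16 samples was most like the averaged profile of the 6 enzymes from PPAT to ATIC were ADIPOR1, KIAA1191, TOMM70 and SEPTIN10. Likeness was the root mean square difference of log2 values centred on each gene's own mean, over 11545 genes outside the lists. It was 0.025 for ADIPOR1, 0.033 for KIAA1191, 0.042 for TOMM70 and 0.045 for SEPTIN10, against a median of 0.438 over all genes compared. Single members lay farther from this average than these genes, from 0.080 for PRPS1 to 0.738 for PRPSAP1. In these genes the difference between the lines exceeded the responses to glucose. It was 0.43 for ADIPOR1 and 0.40 for KIAA1191 on the log2 scale, with responses to glucose of -0.0065 and -0.024 in MDA-MB-231 and -0.090 and -0.10 in MDA-MB-468.

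**Figure D5:**
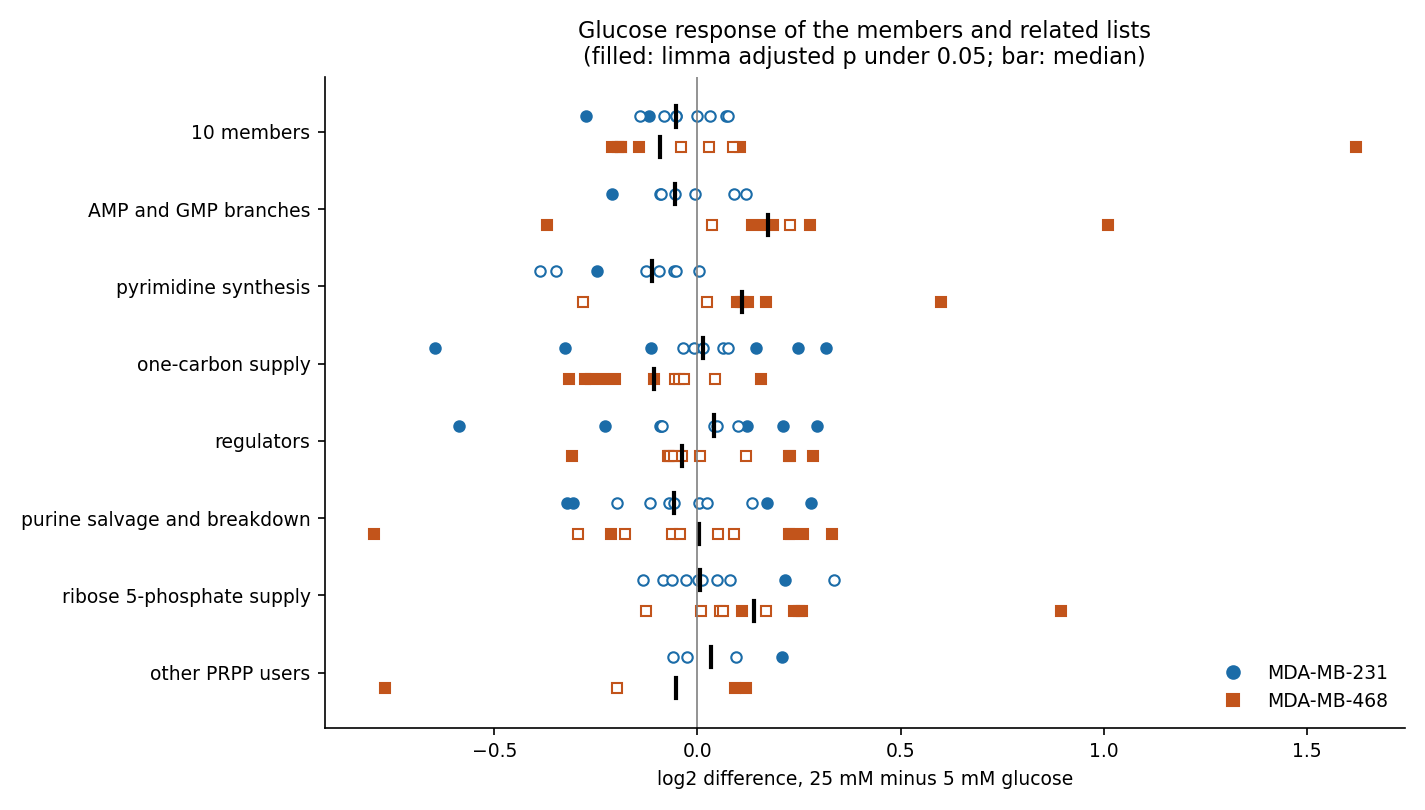
Log2 difference between 25 and 5 mM glucose (horizontal axis) of the 10 members and of the genes of 7 related lists, with MDA-MB-231 as blue circles and MDA-MB-468 as orange squares. Filled symbols have a limma adjusted p under 0.05 and black bars are medians. In MDA-MB-468 the median of the members is -0.091, that of pyrimidine synthesis 0.11 and that of one-carbon supply -0.11.

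The levels of the related genes also differed between the lines in low glucose, where MDA-MB-468 minus MDA-MB-231 is given on the log2 scale. Among the genes of the branches, AK1 was at -1.60 and GMPS at 1.19. In the salvage list AMPD3 was at -3.03 and PNP at 1.03, and GDA was read in MDA-MB-468 alone, at 607 ± 23.1 normalized read counts. In one-carbon supply MTHFD2 was at 1.56, ALDH1L1 had 101 ± 11 normalized read counts in MDA-MB-231 against 3 to 6 reads in each low-glucose library of MDA-MB-468, and ALDH1L2 had 919.9 ± 10.6 in MDA-MB-468 against 1 to 3 reads in each low-glucose library of MDA-MB-231. PGM2, RPE and PGM1 of ribose 5-phosphate supply were at 1.16, 0.92 and -0.89. CTPS1, NME2 and NME1 of pyrimidine synthesis were at 1.52, 1.22 and -0.91. Of the other users of PRPP, NAPRT was at -3.80, PRTFDC1 had 199 ± 20.5 in MDA-MB-231 against 3 to 7 reads in each low-glucose library of MDA-MB-468, and QPRT had 4271 ± 13.8 in MDA-MB-468 against 1 to 4 reads in each low-glucose library of MDA-MB-231. Among the regulators MXD4, MITF and MYC were lower in MDA-MB-468, at -2.64, -2.39 and -1.19. All of these were past the limma threshold, which 45.0% of all 17115 genes passed as higher and 40.4% as lower in MDA-MB-468. By list, the genes past it in this comparison were 3 higher and 4 lower of 8 genes of AMP and GMP branches, 5 higher and 5 lower of 12 of salvage and breakdown, 6 higher and 4 lower of 12 of one-carbon supply, 4 higher and 4 lower of 10 of ribose 5-phosphate supply, 6 higher and 1 lower of 8 of pyrimidine synthesis, 1 higher and 4 lower of 5 of other users of PRPP and 2 higher and 9 lower of 11 of regulators.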

How the data were processed

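The sources analysed were 16 libraries of total RNA from 2 cell lines, prepared with a TruSeq stranded mRNA kit. The deposited values are a signal, normalized read counts that the authors made by dividing the reads of each gene by 1 factor per library. 1 table held all 16 samples, and 0 of its sample columns were left unused. All values (100%) came out as whole reads within a tolerance of 0.01, which gave the depth and the alternatives on counts. The study's methods name TopHat with hg19 and Ensembl annotation, while the submitters' processing notes name hg38 and edgeR. The counting program and its use of strand are not given in the sources used here. IDs were paired with symbols, positions and lengths of canonical transcripts through GENCODE v44 on GRCh37 and a table of gene names, with symbols for 16633 and lengths for 17418 of 18332.

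Values were tested as log2(value + 1) with limma 3.58.1 (R 4.3.3, lmFit and eBayes with trend), for genes at 0.5 CPM or more in at least 2 of the samples fitted, with Benjamini-Hochberg adjustment over all genes tested and a threshold of 0.05. Glucose was tested on 8 samples per line. The difference of the responses and the lines in low glucose were tested on 16. Fold changes are on the log2(value + 1) scale, which understates those of low genes. The members and lists were chosen with earlier results of these data known. The text names all 10 members, and from each related list and comparison up to 3 genes with the largest absolute log2 difference among those past the threshold with at least 5 CPM in the higher group. For likeness it names the nearest 5 genes with at least 5 CPM. Some genes that this rule selects are not reported here. Replicates of a group differed by more than sampling noise, with a chi-square per gene of 2.02 to 5.20 over pairs. Intervals are 95% intervals of the model, and floors of 3 reads cover counting error only. Alternatives used other scalings, filters, pseudocounts and tools (edgeR 4.0.16 and DESeq2 1.42.0 on recovered reads), a correction for transcript length, a replicate block, 1 fit over all samples, and each replicate left out in turn. The limma step was tested on simulated data for the glucose comparison in MDA-MB-231. Promoter windows were searched for exact motif matches on both strands.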

Additional observations from a re-analysis of the deposited data

Results flagged for a closer look

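Among 40 groups of 4 samples of the 10 members, 3 held a sample far from the other 3 by Dixon's test at the 95% level, and chance gives about 1 in 20. PRPSAP1 in MDA-MB-468 in high glucose had 749.7 normalized read counts in replicate 3 against 779 to 783 in the others, all far above the low-glucose samples. PAICS in MDA-MB-468 in low glucose had 4945 in replicate 2 against 4758 to 4763 in the others. ADSL in MDA-MB-231 in high glucose had 1460.1 in replicate 3 against 1536 to 1550.4 in the others.

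Limma's interaction test called 30.9% of all 17115 genes. For members such calls are a description, since their values may have guided the choice. The response to glucose differed between the lines, MDA-MB-468 minus MDA-MB-231, in this test for PRPSAP1 (1.67) and ADSL (-0.21) on the log2 scale. In the AMP and GMP branches it differed for AK1 (1.02) and IMPDH2 (-0.28). In salvage it differed for HPRT1 (0.58) and AMPD3 (-0.57), and for GDA (-0.80), which has no reads in MDA-MB-231, so that its value is that of MDA-MB-468. In one-carbon supply it differed for TYMS (0.80) and for ALDH1L1 (-1.33), which had 0 to 6 reads in each MDA-MB-468 library. In ribose 5-phosphate supply it differed for PGM1 (0.88), RPE (0.27) and TKT (0.26), and in pyrimidine synthesis for NME1 (0.66), CTPS1 (0.35) and UMPS (0.30). Among the other users of PRPP it differed for NAPRT (-0.98) and NAMPT (0.15), and among the regulators for E2F1 (0.82), MXI1 (-0.37) and RPS6KB1 (-0.22). Of the genes next to members it differed for QRICH2 (1.82), UBALD2 (0.88), SPHK1 (0.62) and UBE2O (0.16) near PRPSAP1, for SGSM3 (0.72), which overlaps ADSL, and for CTC1 (0.28), which overlaps PFAS.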

How the results depend on the processing

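The alternatives refit the same samples, and the members' values may have guided their choice. Calls of members below therefore describe dependence on processing only and add no evidence. PRPSAP1 in MDA-MB-468 kept its call under all 21 alternatives, from 1.58 to 1.66 on the log2 scale. So did PRPS2 in both lines and PPAT, PAICS and ADSL in MDA-MB-468. Of the 10 members, 2 were called in MDA-MB-231, and 1 under quantile rescaling, under the replicate block and under the transcript length correction, each of which lost PAICS. This count ranged from 1 to 3 when 1 replicate was left out. In MDA-MB-468 7 were called, 5 to 8 under the other alternatives and 6 to 7 without 1 replicate. Under the length correction ATIC (0.050) and PFAS (-0.15) were lost, and under quantile rescaling GART (-0.083) was added. The difference of the responses was called for 2 members, for 4 under quantile rescaling, which added GART (-0.15) and PAICS (-0.17), and for 2 to 3 without 1 replicate, where ATIC was added. Between the lines 9 were called, and 10 under the length correction, which added PRPSAP2 (-0.24). ATIC in MDA-MB-231, at -0.00094, turned positive with TMM factors (0.0040), DESeq2 (0.0047), edgeR (0.0041), median-of-ratios rescaling (0.0045) and quantile rescaling (0.029), and ranged from -0.021 to 0.012 without 1 replicate. PRPS1 in MDA-MB-468 turned to -0.024 under the length correction. The difference of the PRPSAP2 responses turned to -0.021 under quantile rescaling and ranged from -0.058 to 0.063 without 1 replicate. The cause of these shifts was not tested. Of all genes called in MDA-MB-231, 850 of 2245 were higher in high glucose, and 1027 of 2141 under quantile rescaling. Same-numbered replicates did not deviate together in MDA-MB-231, with correlations of -0.040 to -0.0051. There 0 of 4 samples correlated best with their own number. In MDA-MB-468 the correlations were small and positive, at 0.017 to 0.032, and 3 of 4 samples correlated best with their own number. The replicate block gave calls of 1 member and 1624 genes for glucose in MDA-MB-231. It gave 7 and 7383 for MDA-MB-468, 3 and 4774 for the difference of responses, and 9 and 14567 between the lines. On recovered reads edgeR called 2244, 7484, 5258 and 14650 genes in the same order, and DESeq2 2085, 6632, 5054 and 14427. Over all member values, 857 alternatives kept direction and call, 14 gained a call, 12 lost one and 17 changed sign. Depth limits the genes read fewer than 3 times, and none of the 10 members is near that floor.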

Other observations

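The genes named here around PRPSAP1 were chosen after their values were seen. FOXJ1, a factor of ciliated cells, had 3.76 ± 1.06 normalized read counts in MDA-MB-468 in low glucose, near the floor of 3 reads. In high glucose FOXJ1 had 16.3 ± 5.97 (mean ± SD, n = 4), a rise with a log2 difference of 1.80 (limma adjusted p = 0.00158). GALR2, a galanin receptor, fell from 94.0 ± 13.5 to 18.8 ± 2.22, with -2.26 (limma adjusted p = 1.55e-08). SRP68, of the signal recognition particle, rose with 0.56 (limma adjusted p = 9.12e-09) and SRSF2, a splicing factor, with 0.22 (limma adjusted p = 2.79e-05). MFSD11, which overlaps SRSF2 on the other strand, fell with -0.38 (limma adjusted p = 4.24e-05). Whether reads of these 2 genes were counted by strand is not given. The neighbours of PRPSAP1 that responded in MDA-MB-468 thus moved in both directions, though more rose. Of the 34 genes tested within 500 kb, 14 were higher and 4 lower, against 24.9% and 22.7% of all 15757 genes. Windows around some other members also leaned to 1 side in this line. That of PFAS had 3 higher and 9 lower of 24, and that of PRPSAP2 had 1 higher and 5 lower of 18. Around GART 4 were higher and 3 lower of 14, and at most 8 genes were tested around each other member.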
